A study of Mus musculus with 4 samples.

Results

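Cytochrome P450 genes of the Cyp2b subfamily, 5 further P450 genes known from lung and the nuclear receptor gene Nr1i3 were read in KP mouse lung tumours, comparing tumours that lack CD109 with tumours that carry it. The 10 genes are Cyp2b9, Cyp2b10, Cyp2b13, Cyp2b19, Cyp2f2, Cyp2s1, Cyp4b1, Cyp1a1, Cyp1b1 and Nr1i3, out of 23787 genes with a named probe on the array. They were selected on measured values. Cyp2b9 and Cyp2b10 had stood out as higher in CD109-/- tumours, and the others were added to see how far that difference extended. Values of the comparison between genotypes are therefore given for these genes as a description, with no test read from them. The genes were represented by 13 probes, of which 8 probes, standing for 7 genes, were bright enough to be tested.

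KP is the name the labels give to the mice, a Cre-dependent model of lung adenocarcinoma. All 4 samples were lung tumours of C57BL/6J KP mice, taken 88 to 92 days after Cre recombinase on an adenovirus had been placed in the trachea. The sources used here do not name the promoter that drove Cre. There were 2 samples of CD109-/- tumours, replicate 1 from a male and replicate 2 from a female, and 2 samples of CD109+/+ tumours, both from females. Sex was thus partly mixed with genotype. The CD109-/- replicates differ in sex and so came from separate animals. Nothing in the labels says so outright of the CD109+/+ pair, so errors measure only the spread between these samples.

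Values are log2 of the background-subtracted signal of a probe minus the 75th percentile of that array, so that 0 is the level of a fairly bright probe. This scale has no common zero between probes, and no gene's level is set against another's. Differences are CD109-/- minus CD109+/+, with limma's standard error (SE, n = 2 per genotype). The 75th percentile of the signal lay between 557 and 688 on the 4 arrays, and 64.3% to 67.0% of spots were well above background. Arrays correlated at Pearson r = 0.961 to 0.979 across genes, highest between the CD109+/+ replicates and lowest between the CD109-/- replicates. CD109-/- replicate 1 was closer to CD109+/+ replicate 1 (0.968), and CD109-/- replicate 2 to CD109+/+ replicate 2 (0.978). The CD109-/- arrays thus did not group by genotype. Markers of alveolar type 2 cells, from which many such tumours derive, were bright on every array, with list medians of 6.46 and 6.72 for CD109-/- tumours, against 6.24 and 6.56 for CD109+/+ tumours. The targeted gene Cd109 was not well above background in CD109-/- tumours (-7.98 and -7.87) and stood at -3.70 and -4.66 in CD109+/+ tumours, at least 2.92-fold lower without CD109. Across all 16443 genes tested, 0% (0 genes) passed a Benjamini-Hochberg adjusted p of 0.05 in limma, and 1219 had an unadjusted p under 0.05.

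P450 enzymes are haem proteins of the endoplasmic reticulum that oxidise drugs, inhaled chemicals, fatty acids and steroids. In lung they are concentrated in club cells, the secretory cells of the small airways, with others in alveolar, endothelial and stromal cells. The Cyp2b genes are best known from liver, where phenobarbital-like compounds induce Cyp2b10 through CAR, the constitutive androstane receptor encoded by Nr1i3, which binds DNA together with retinoid X receptors. Cyp1a1 and Cyp1b1 are the classic targets of the aryl hydrocarbon receptor AhR.

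The 4 Cyp2b genes selected lie in 1 block of Cyp2 genes on chromosome 7, and their start regions are shown so that these close paralogs can be compared in sequence. Each sequence is taken from RefSeq (GRCm38.p6) and runs 5′ to 3′ from 250 bases before the annotated start site to 50 bases after it. All 10 genes had an entry in that set. Capitals mark AGGTCA, the half-site bound by many nuclear receptors, and GCGTG, the core bound by AhR, each on either strand. The letters TATAAA were also searched for and were not in these 4 windows.
Cyp2b10, chr7:25897408-25897707, plus strand: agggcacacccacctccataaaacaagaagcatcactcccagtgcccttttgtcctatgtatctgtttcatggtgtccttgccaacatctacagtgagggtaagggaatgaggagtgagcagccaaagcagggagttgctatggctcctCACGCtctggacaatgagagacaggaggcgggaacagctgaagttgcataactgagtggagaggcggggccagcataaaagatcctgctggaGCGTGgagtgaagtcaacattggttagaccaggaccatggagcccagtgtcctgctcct
Cyp2b9, chr7:26173159-26173458, plus strand: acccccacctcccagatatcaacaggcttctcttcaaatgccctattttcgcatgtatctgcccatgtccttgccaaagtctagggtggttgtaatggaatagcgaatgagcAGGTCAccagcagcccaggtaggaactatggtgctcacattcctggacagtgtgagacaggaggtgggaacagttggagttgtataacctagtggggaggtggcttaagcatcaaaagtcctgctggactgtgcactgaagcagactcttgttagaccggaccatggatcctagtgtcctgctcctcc
Cyp2b13, chr7:26061245-26061544, plus strand: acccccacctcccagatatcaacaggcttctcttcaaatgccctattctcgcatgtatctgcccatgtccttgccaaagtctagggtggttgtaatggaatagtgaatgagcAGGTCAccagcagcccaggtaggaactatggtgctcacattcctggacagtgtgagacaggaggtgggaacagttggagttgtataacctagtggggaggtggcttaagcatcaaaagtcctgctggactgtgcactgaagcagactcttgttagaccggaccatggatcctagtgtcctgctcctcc
Cyp2b19, chr7:26756892-26757191, plus strand: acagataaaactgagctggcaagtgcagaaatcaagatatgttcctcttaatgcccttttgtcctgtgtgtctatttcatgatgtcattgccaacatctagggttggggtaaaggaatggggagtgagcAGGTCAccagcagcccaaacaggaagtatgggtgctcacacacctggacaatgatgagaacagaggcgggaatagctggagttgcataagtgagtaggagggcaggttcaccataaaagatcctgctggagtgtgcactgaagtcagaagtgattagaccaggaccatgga

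The Cyp2b9 and Cyp2b13 windows were 99.3% identical over 300 bases. Counted from 1 at the 5′ end of the window, and with the Cyp2b9 base first, they differed only by T48C and C104T. Cyp2b10 was 71.7% identical to either of them and 69.0% to Cyp2b19 when aligned end to end. AGGTCA was found in the windows of Cyp2b9, Cyp2b13, Cyp2b19 and Cyp2f2, 4 of the 10 genes, against 16.3% of 32851 promoter windows of the same length. GCGTG stood in the windows of Cyp2b10, Cyp1a1 and Cyp1b1, against 32.4% of all windows, and TATAAA only in that of Cyp1a1, against 13.6%. These are matches of letters and say nothing of binding.

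Cyp2b9 and Cyp2b10 were both higher in CD109-/- tumours, by 4.92-fold and 4.59-fold. Cyp2b9, a testosterone-hydroxylating enzyme whose liver expression in mice is female-biased, read 2.68 and 2.59 in CD109-/- tumours, against 0.33 and 0.34 in CD109+/+ tumours. Its difference was 2.30 ± 0.21. The male CD109-/- tumour was no lower than the female one. The brighter Cyp2b10 probe read 3.46 and 3.43 in CD109-/- tumours, against 1.31 and 1.17 in CD109+/+ tumours, a difference of 2.20 ± 0.21. Both genes had replicates close together and genotypes wide apart.

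A second Cyp2b10 probe also stood higher, with -0.59 and -0.75 in CD109-/- tumours, against -2.93 and -2.70 in CD109+/+ tumours, and a difference of 2.15. In unscaled signal the brighter Cyp2b10 probe stood at 7433 and 7399 in CD109-/- tumours, against 1385 and 1508 in CD109+/+ tumours. Of all genes tested, 0.529% differed upward by at least 2 on the log2 scale, and Cyp2b9 and Cyp2b10 ranked 46 and 55 among all genes. They were selected for this difference. Without the probe sequences, how far the Cyp2b9 probe reads Cyp2b10 or the reverse was not examined. In whole tumours, a change in the number of cells that express a gene and a change in RNA per cell cannot be told apart.

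**Figure D1:**
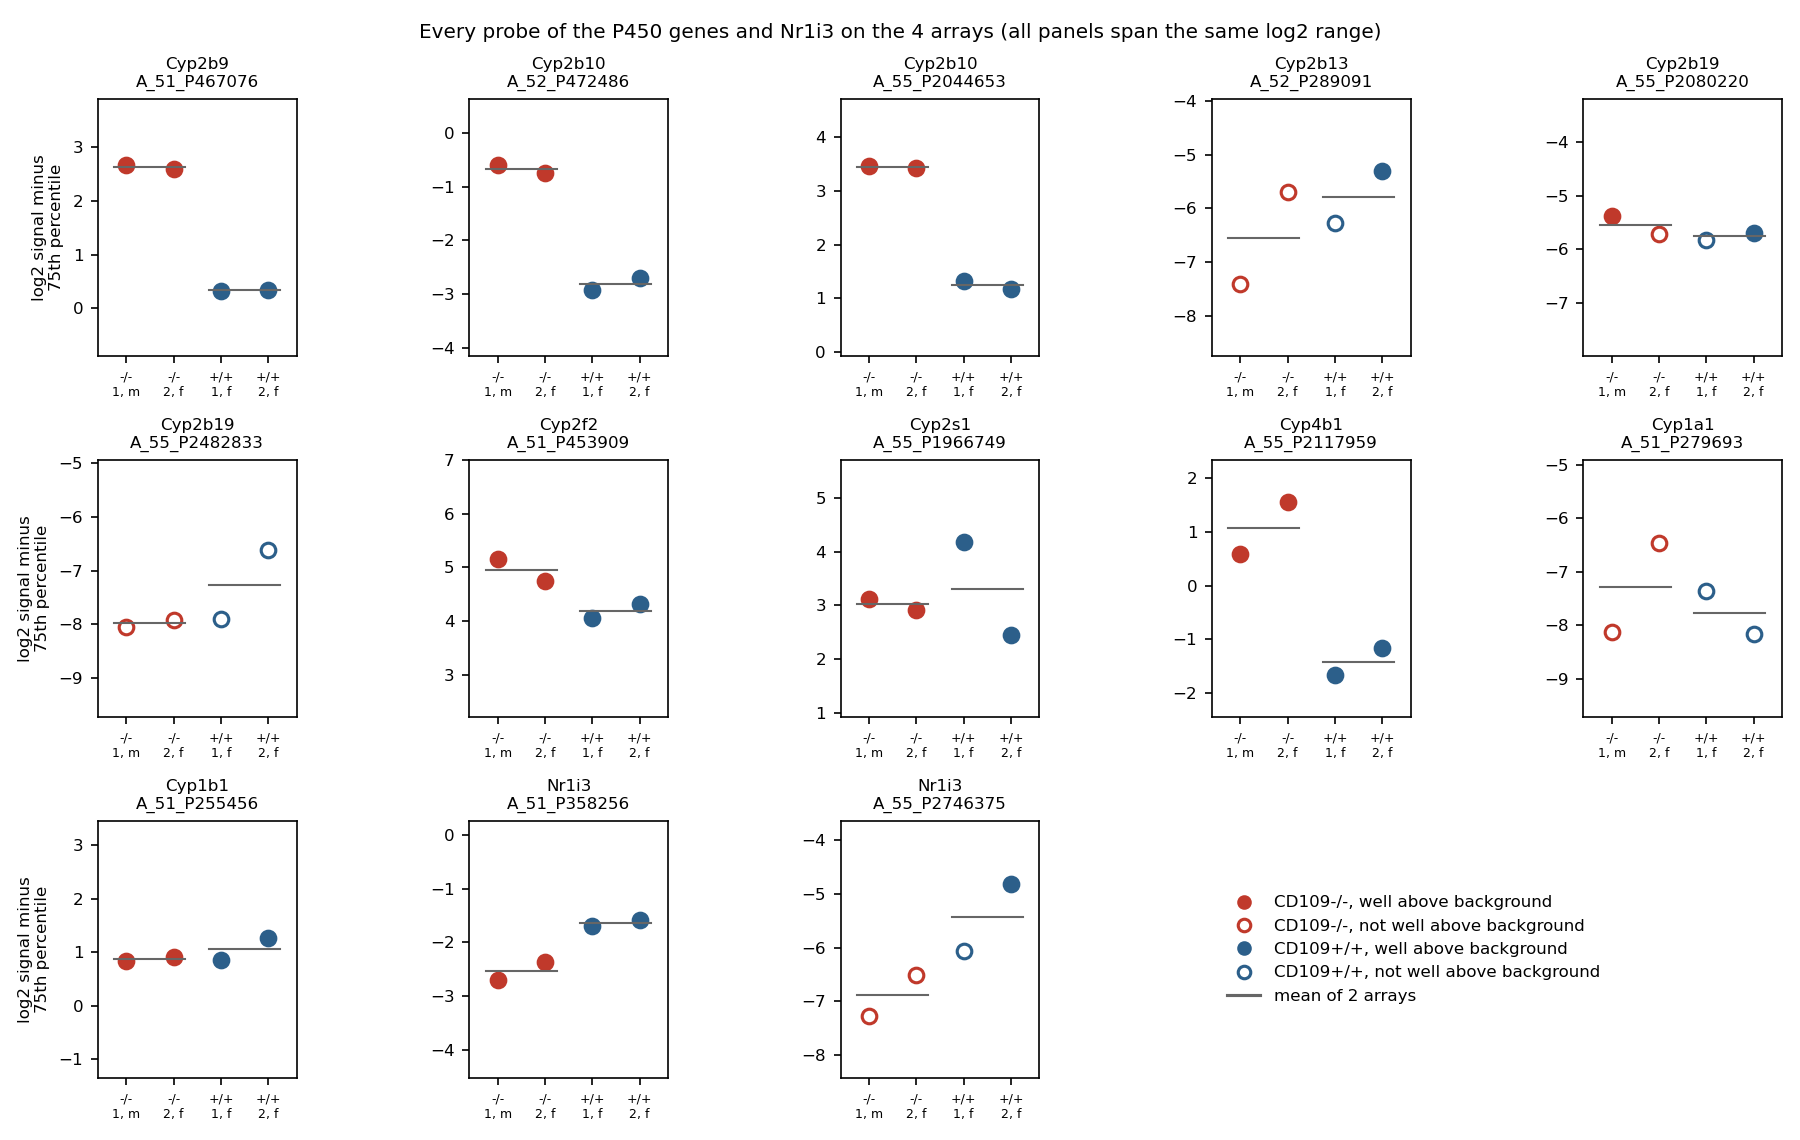
Log2 signal minus the 75th percentile of the array for each of the 13 probes on the 4 arrays (m, male; f, female), with filled points well above background, open points not, and grey lines at the mean of each genotype. The 3 probes of Cyp2b9 and Cyp2b10 and the probe of Cyp4b1 stood higher in both CD109-/- tumours, the detected Nr1i3 probe stood lower, and Cyp2s1 and Cyp1b1 overlapped.

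Cyp2b13 and Cyp2b19 were at the edge of detection. The single Cyp2b13 probe, for a gene best known from female liver, read -7.41 and -5.70 in CD109-/- tumours, against -6.28 and -5.31 in CD109+/+ tumours. It was well above background only in CD109+/+ replicate 2, and the genotypes overlapped. A further Cyp2b gene of the block, Cyp2b23, had a named probe that was too dim to test.

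Cyp2b19, an arachidonic acid epoxygenase known from mouse keratinocytes, had 2 dim probes. The brighter Cyp2b19 probe read -5.37 and -5.71 in CD109-/- tumours, against -5.82 and -5.69 in CD109+/+ tumours, and rose above background in CD109-/- replicate 1 and CD109+/+ replicate 2. The other Cyp2b19 probe was not well above background on any array. At these levels a small difference in Cyp2b13 or Cyp2b19 could not be measured.

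Along chromosome 7 the Cyp2 block holds 18 protein-coding genes in RefSeq, 13 of them Cyp2 genes, of which 7 were tested. In gene order these were Cyp2s1, Cyp2b10, Cyp2b9, Cyp2a4, Cyp2a5, Cyp2f2 and Cyp2t4. The near-identical steroid and coumarin hydroxylase genes Cyp2a4 and Cyp2a5, whose probes may share signal, varied within genotypes. Cyp2a5 read -2.76 and -0.82 in CD109-/- tumours, against -4.83 and -2.09 in CD109+/+ tumours, a difference of 1.67 ± 1.13. With each array left out Cyp2a5 ranged from 0.30 (without CD109+/+ replicate 1) to 3.04 (without CD109+/+ replicate 2). Cyp2a4 differed by 1.06 ± 0.85, with 0.04 without CD109-/- replicate 2 and 2.07 without CD109-/- replicate 1, and Cyp2t4 by -0.56 ± 0.34. Cyp2b13, lying between Cyp2b10 and Cyp2b9 in this order, was among the genes too dim to test.

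**Figure D2:**
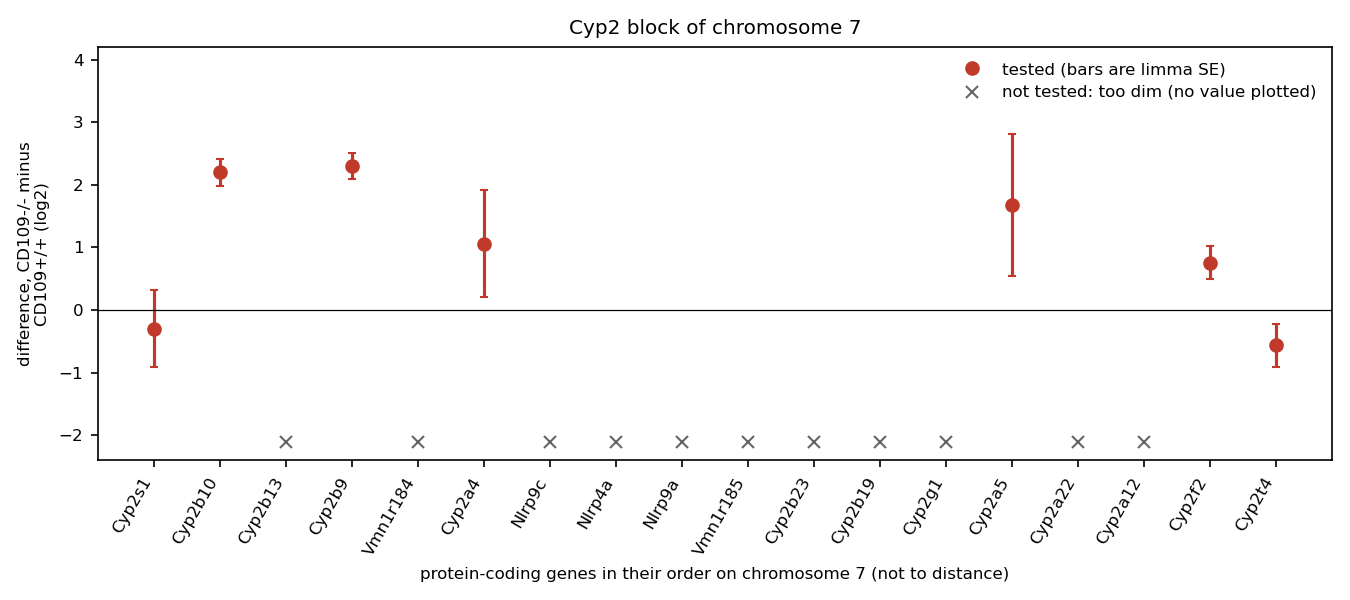
Difference between CD109-/- and CD109+/+ tumours on the log2 scale for the 18 protein-coding genes of the Cyp2 block, in their order on chromosome 7 and not to distance, with limma's SE. Cyp2b10 and Cyp2b9 stood at 2.20 and 2.30, Cyp2s1 and Cyp2t4 below 0, and crosses mark genes too dim to test.

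Among the other lung P450 genes, Cyp4b1 and Cyp2f2 were higher in CD109-/- tumours. Cyp4b1, which hydroxylates fatty acids and activates the lung toxicant ipomeanol, read 0.60 and 1.55 in CD109-/- tumours, against -1.67 and -1.16 in CD109+/+ tumours. The genotypes did not overlap, and the difference of 2.49 ± 0.41 (5.62-fold) ranked 34 among all genes. Its replicates lay further apart than those of Cyp2b9 and Cyp2b10. The female CD109-/- tumour was the higher of the pair.

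Cyp2f2, the naphthalene-activating enzyme of mouse club cells, read 5.15 and 4.75 in CD109-/- tumours, against 4.06 and 4.33 in CD109+/+ tumours. The difference of 0.76 ± 0.26 (1.69-fold) was larger than the gap between replicates of either genotype. Markers of club cells moved with it in part. Of 10 club markers 7 were higher and 3 lower in CD109-/- tumours, and 3 were higher without overlap, against 20.3% of all genes. The list's median difference was 0.43, but 0.02 without CD109+/+ replicate 1 and 0.81 without CD109-/- replicate 1. Scgb1a1, the club cell secretoglobin gene, read 7.49 and 7.79 in CD109-/- tumours, against 5.91 and 6.51 in CD109+/+ tumours, a difference of 1.43 ± 0.30, and Gabrp differed by 0.88 ± 0.46 (0.37 without CD109+/+ replicate 2). The 3 lower markers, each overlapping between genotypes, were Bpifa1 (-0.97 ± 1.05), Bpifb1 (-0.79 ± 0.77) and the secretoglobin gene Scgb3a1 (-0.21 ± 1.20). The summed signal of the list, in multiples of the 75th percentile, was 354 and 478 in CD109-/- tumours, against 130 and 272 in CD109+/+ tumours. Such a sum leans on a few bright probes, Scgb1a1 among them, and does not speak for the list as a whole. The part of club cell number in the Cyp2f2, Cyp4b1 and Cyp2b values was not tested.

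Cyp2s1, an epithelial P450 that is abundant in airways, did not separate by genotype. It read 3.12 and 2.92 in CD109-/- tumours, against 4.18 and 2.44 in CD109+/+ tumours, and its difference of -0.29 ± 0.61 lay within its error. The spread came from the CD109+/+ pair, which enclosed both CD109-/- values. The Cyp2s1 difference became 0.57 when CD109+/+ replicate 1 was left out and -1.16 when CD109+/+ replicate 2 was.

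Of the 2 AhR-regulated P450 genes, Cyp1b1 overlapped between genotypes and Cyp1a1 was not detected. Cyp1b1, a steroid- and hydrocarbon-oxidising enzyme of stromal and other cells, read 0.83 and 0.91 in CD109-/- tumours, against 0.86 and 1.27 in CD109+/+ tumours. Its difference was -0.19 ± 0.25, within its error. The single Cyp1a1 probe was not well above background on any array, so it gave no measured difference. Of 12 genes of the AhR list 8 were tested, 5 higher and 3 lower, with a median of 0.21 (0.04 to 0.33 with each array left out). The receptor gene Ahr itself differed by -0.01 ± 0.24, the chaperone gene Ptges3 by 0.30 ± 0.20 and the quinone reductase gene Nqo1 by 0.58 ± 0.47. The Nqo1 value rested on CD109-/- replicate 1, and without that array it was -0.06.

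Nr1i3 stood lower in CD109-/- tumours. Its brighter probe read -2.69 and -2.37 in CD109-/- tumours, against -1.70 and -1.58 in CD109+/+ tumours. The difference was -0.89 ± 0.24 (1.86-fold lower), with no overlap between genotypes. A second Nr1i3 probe, for another transcript, was not well above background in either CD109-/- tumour (-7.27 and -6.50) and was so in 1 of the 2 CD109+/+ tumours (-6.07 and -4.81). With 1 of the 4 arrays well above background, that probe gives no measured difference.

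Over the 7 tested genes, 4 were higher without overlap (Cyp2b9, Cyp2b10, Cyp4b1 and Cyp2f2), 1 was lower without overlap (Nr1i3) and 2 overlapped (Cyp2s1 and Cyp1b1). Over all genes tested 20.3% were higher and 18.3% lower without overlap. At an unadjusted p under 0.05 the same 4 were higher and the same 1 lower, against 5% and 2.41% of all genes. Because the genes were selected on this comparison, the counts are set down beside the background without being read against it. Leaving out each array in turn kept the Cyp2b9 difference between 2.25 and 2.34 and the Cyp2b10 difference between 2.13 and 2.27. Cyp4b1 ranged from 2.01 to 2.97, Cyp2f2 from 0.56 to 0.96 and Nr1i3 from -1.06 to -0.73. Among females only, which leaves 1 CD109-/- tumour, Cyp2b9, Cyp2b10, Cyp4b1 and Nr1i3 differed by 2.25, 2.18, 2.97 and -0.73.

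**Figure D3:**
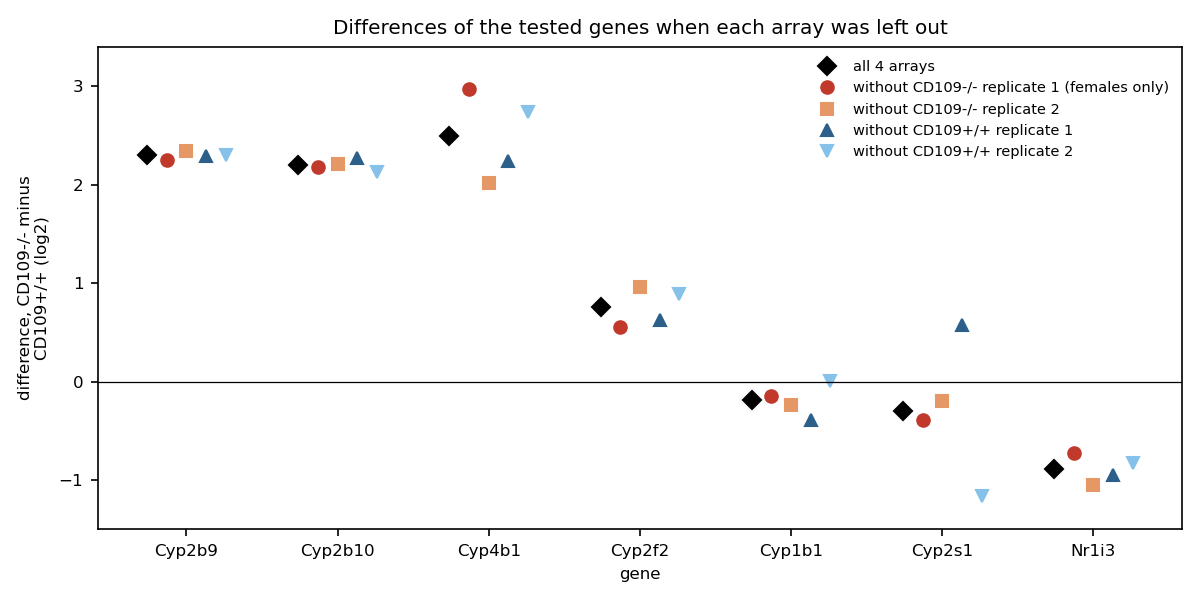
Difference between CD109-/- and CD109+/+ tumours on the log2 scale for the 7 tested genes with all 4 arrays and with each array left out. Cyp2b9 and Cyp2b10 stayed between 2.13 and 2.34, whereas Cyp2s1 lay between -1.16 and 0.57 and Cyp1b1 between -0.40 and 0.01.

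Genes of the wider CAR and PXR axis were mixed in direction. Of 24 target genes known from liver, 16 were tested, 9 higher and 7 lower, with a median of 0.10, against 0.00 over all genes. That median lay between -0.11 and 0.15 with each array left out. Akr1b7, an aldo-keto reductase gene, read -2.13 and -3.02 in CD109-/- tumours, against -4.62 and -4.47 in CD109+/+ tumours, a difference of 1.97 ± 0.36. Cyp3a11, the main PXR-induced P450 of mouse liver, stood lower, with -4.30 and -4.47 in CD109-/- tumours, against -3.59 and -3.78 in CD109+/+ tumours, a difference of -0.70 ± 0.22. Other genes of the list varied in size and direction. Cyp2c29 differed by -2.95 ± 1.37 and Cyp2a5 by 1.67 ± 1.13, while Gstm1 (0.21 ± 0.34) and Abcc3 (-0.19 ± 0.29) lay within their errors. In the list 2 genes were higher and 2 lower without overlap, against 20.3% and 18.3% of all genes.

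Of 15 regulators of CAR and PXR signalling 14 were tested, 4 higher and 10 lower, with a median of -0.12 (-0.24 to 0.06 with each array left out). The retinoid X receptor gene Rxra differed by 0.40 ± 0.22 (second probe 0.80) and Rxrg by -0.91 ± 0.41, and the PXR gene Nr1i2 by -1.59 ± 0.92. Leaving out CD109-/- replicate 2 gave -0.42 for Rxrg and -0.26 for Nr1i2, and leaving out CD109-/- replicate 1 gave -1.40 for Rxrg and -2.92 for Nr1i2. Nr1i2 read -4.45 and -7.11 in CD109-/- tumours, against -4.41 and -3.97 in CD109+/+ tumours. The -7.11 lay below the -6.50 at which the second Nr1i3 probe was not well above background on the same array. The Nr1i2 difference thus rests on a value near the floor. Redox partners of P450 enzymes and haem supply genes had 9 of 11 higher with a median of 0.11 (-0.03 to 0.17 with each array left out). Por, the reductase that all microsomal P450 enzymes depend on, differed by -0.39 ± 0.40. Cyb5a, encoding cytochrome b5, differed by 0.60 ± 0.30 and the epoxide hydrolase gene Ephx1 by 0.93 ± 0.32. Cyb5a became 0.29 with CD109+/+ replicate 1 left out and 0.90 with CD109+/+ replicate 2 left out, and Ephx1 became 0.59 with CD109-/- replicate 2 left out.

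Outside the selected genes, Cyp genes were taken where the symbol gives a family number, subfamily letters and a gene number. Of such genes 87 had a named probe and 46 were tested, Cyp2a4, Cyp2a5, Cyp2t4 and Cyp3a11 among them. Of these 46, 25 were higher and 21 lower in CD109-/- tumours. Their median was 0.06, and lay between -0.07 and 0.02 with each array left out. In this set 5 were higher and 12 lower without overlap, against 20.3% and 18.3% of all genes. The most upward of them by moderated t were Cyp7b1, an oxysterol hydroxylase (1.70 ± 0.26, second probe 1.34), Cyp2d22 and the retinoic acid hydroxylase Cyp26b1 (1.22 ± 0.53). Cyp2d22 was not well above background in CD109+/+ tumours and was at least 1.54-fold higher in CD109-/- tumours. Leaving out 1 array moved Cyp26b1 to 0.49 (CD109+/+ replicate 2) or 1.95 (CD109+/+ replicate 1). The most downward were Cyp3a11, Cyp2d26 (-1.21 ± 0.48, second probe 0.21) and Cyp2c29 (-2.95 ± 1.37). With CD109-/- replicate 1 left out Cyp2d26 was -1.85 and Cyp2c29 -0.91, and with CD109-/- replicate 2 left out Cyp2d26 was -0.56 and Cyp2c29 -4.98. Cyp7b1 read -1.03 and -0.79 in CD109-/- tumours, against -2.83 and -2.39 in CD109+/+ tumours.

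**Figure D4:**
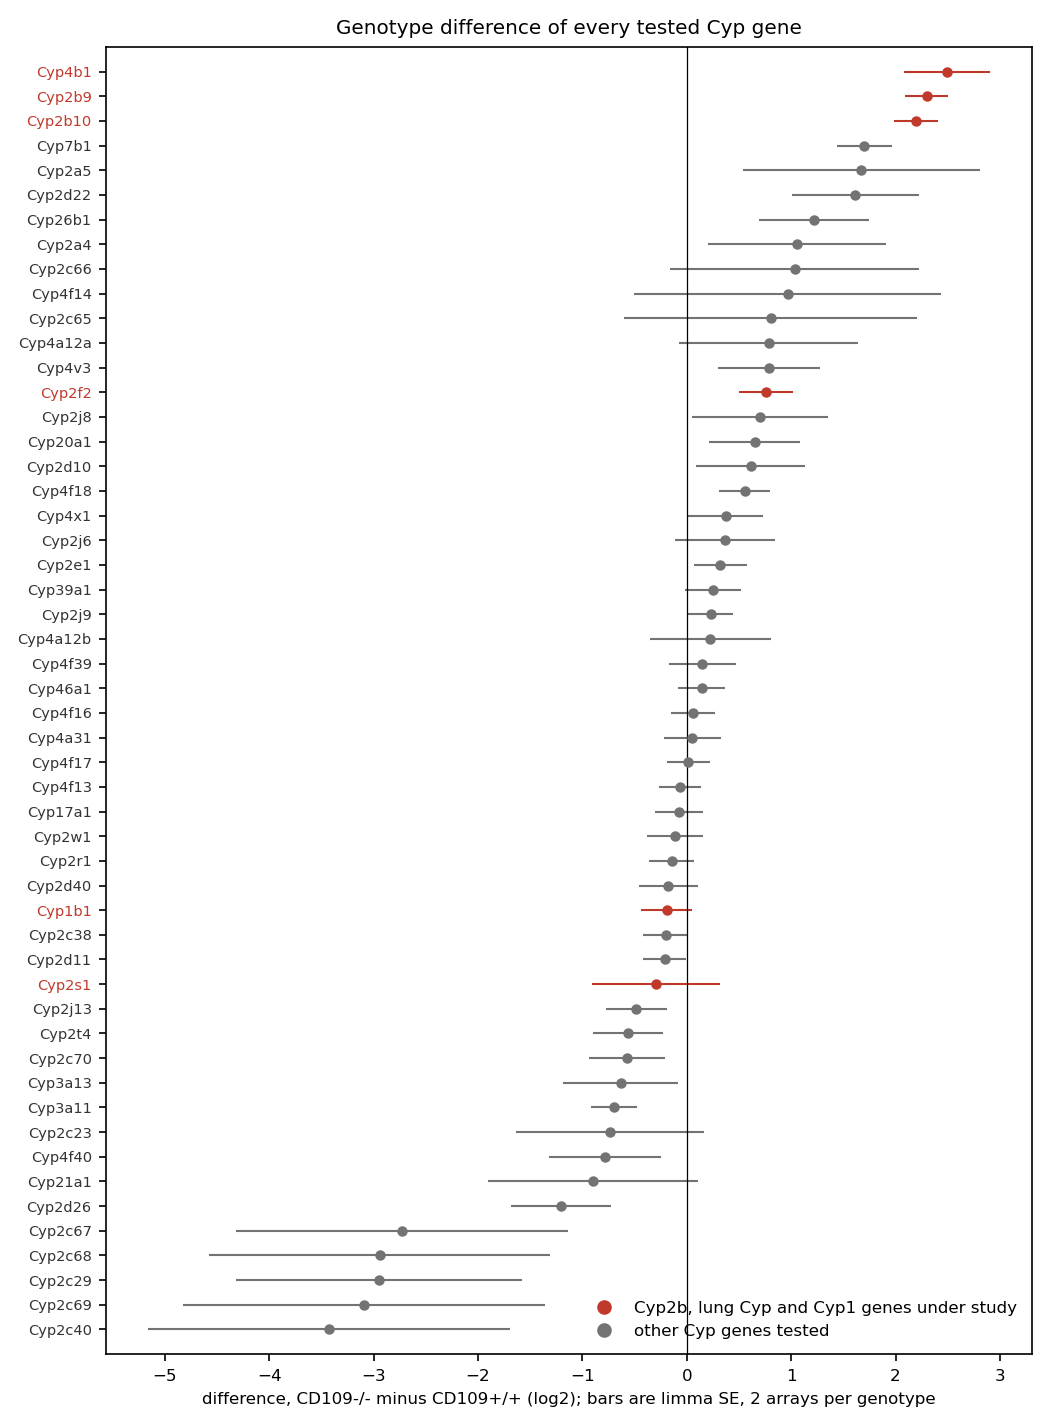
Difference between CD109-/- and CD109+/+ tumours on the log2 scale, with limma's SE, for the tested Cyp genes with subfamily letters in their symbol. Those under study are in red. Cyp4b1, Cyp2b9 and Cyp2b10 stood at the top between 2.20 and 2.49, and 5 Cyp2c genes with wide errors stood at the bottom.

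Cyp2b9 and Cyp2b10 were both selected for their upward difference on these arrays, and the measure of likeness below uses the same values, so it is a description only. By this measure the gene closest to Cyp2b10 out of all those tested was Cyp2b9. After each gene was centred on its own mean, the root mean square distance over the 4 arrays was 0.076 for Cyp2b9. The next were D430019H16Rik at 0.079, the monocyte chemokine gene Ccl8 at 0.156, the zinc finger gene Bnc2 at 0.157 and Xlr4a at 0.158. Xlr4a differed by 2.09 on the probe used and by 1.26 on its second probe. Bnc2 was not well above background in CD109+/+ tumours and was at least 1.31-fold higher in CD109-/- tumours. Its distance thus rests in part on values near the floor. Cyp4b1 ranked 79 and Cyp2f2 752 by this measure, and Nr1i3 was near the far end at 15586.

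Markers of several cell types differed on the same arrays. Of the macrophage markers 10 of 10 stood higher without CD109, 8 with no overlap (20.3% of all genes), and the median difference was 0.69. Cd163 was at least 3.39-fold higher and Mrc1 differed by 1.21 ± 0.22. Fibroblast and smooth muscle markers had a median of 0.70 with 9 of 10 higher, among them Lum (1.71 ± 0.22) and Wnt2 (1.57 ± 0.27). All 13 endothelial markers were higher, with a median of 0.37 (0.28 to 0.59 with each array left out), 7 without overlap, led by Calcrl (1.22 ± 0.28) and Tek (0.93 ± 0.23). Their summed signal was 43.1 and 63.2 in CD109-/- tumours, against 45.1 and 39.6 in CD109+/+ tumours. The T and B cell list had 6 of 9 higher with a median of 0.31 (up to 0.71 without CD109+/+ replicate 2), with the T cell genes Cd3d at 1.63 ± 0.30 and Cd3g at 1.54 ± 0.32. Among its B cell genes, Cd79a differed by -0.20 ± 0.26, Cd79b by -0.03 ± 0.54 and Ms4a1 by -0.17 ± 0.21, the last without overlap.

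Ciliated cell markers were higher in 9 of 9 with a median of 0.95, although 0 were without overlap, as Foxj1 (1.95 ± 1.22) and Rsph1 (1.05 ± 0.66) varied within genotypes. The ciliated median was 0.27 without CD109+/+ replicate 1, 1.73 without CD109+/+ replicate 2, 1.69 without CD109-/- replicate 1 and 0.18 without CD109-/- replicate 2. Alveolar type 2 markers had 5 of 10 higher with a median of 0.09 (-0.04 to 0.33 with each array left out), with Lamp3 at 0.54 ± 0.31 and Slc34a2 at 0.32 ± 0.24. Of its surfactant protein genes, Sftpc (-0.18 ± 0.21) and Sftpd (-0.14 ± 0.21) were lower without overlap, as were 18.3% of all genes. Sftpa1 (0.48 ± 0.38) and Sftpb (-0.33 ± 0.30) overlapped between genotypes. Alveolar type 1 markers had 7 of 9 higher with a median of 0.21 (-0.19 to 0.54 with each array left out). They were led by Igfbp2 (1.33 ± 0.37) and Clic5 (0.56 ± 0.32, and 0.22 without CD109-/- replicate 2). Ager (-0.17 ± 0.37) and Akap5 (-0.45 ± 0.46) were lower. Hopx (0.21 ± 0.46), Aqp5 (0.08 ± 0.33) and Pdpn (0.02 ± 0.40) lay within their errors. Markers of hepatocytes, the cells in which Cyp2b10 and Nr1i3 are best known, were lower in 11 of 12, with a median of -0.87. Without CD109+/+ replicate 2 that median was -0.09, and without CD109-/- replicate 1 it was -1.31. Albumin (Alb) read -3.19 and 1.17 in CD109-/- tumours, against 2.49 and 5.25 in CD109+/+ tumours, a difference of -4.88 ± 1.72, and Fgg differed by 1.49 ± 0.63. The summed hepatocyte signal was 5.08 and 7.03 in CD109-/- tumours, against 10.6 and 47.7 in CD109+/+ tumours, where it leaned on Alb. The part of these cell types in the P450 values was not tested.

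**Figure D5:**
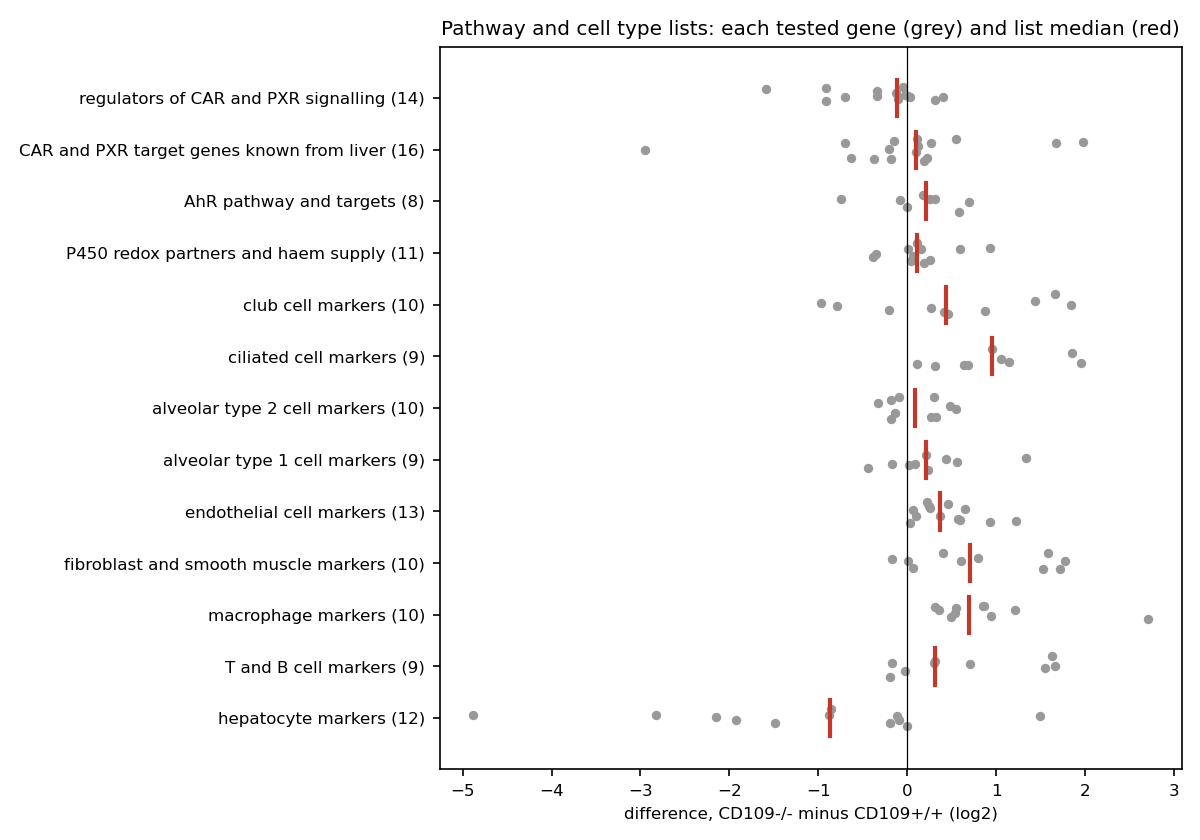
Difference between CD109-/- and CD109+/+ tumours on the log2 scale for each tested gene (grey) of the pathway and cell type lists, with the list median in red and the number tested in brackets. Medians of the CAR, AhR and redox lists lay between -0.12 and 0.21, the macrophage and fibroblast medians near 0.7 and the hepatocyte median at -0.87.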

How the data were processed

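Total RNA of 4 lung tumour samples was labelled with Cy3 from 100 ng and hybridised to single-colour Agilent arrays, per the labels' protocols. Per the file headers, the scanner files were made by Agilent Feature Extraction 12.1.0.3 and hold intensity values, background-subtracted, detrended and kept above a floor, not scaled between arrays. The authors also deposited 1 table of intensity values equal to each array's processed signal times a constant (1.04 to 1.21), whose rule the sources used here do not state. It served as an alternative.

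Outlier spots (58 to 73 per array) were left out, spots of a probe were averaged after log2, and each array's 75th percentile was subtracted. A probe was tested when well above background on both arrays of a genotype (35769 of 56605 probes). Probes were named through RefSeq accessions (GRCm38.p6 table), which named 34566 probes. The array design uses an older build, and its positions were not used. The RefSeq table also gave the gene types and, through gene positions, the bounds and gene order of the Cyp2 block. A gene is its brightest tested probe. Genotypes were compared with limma 3.58.1 in R 4.3.3 (lmFit, eBayes, Benjamini-Hochberg at 0.05, 2 residual and 2.54 prior degrees of freedom). Where a genotype was not well above background, a bound is given, with the dim genotype set, array by array, at the lowest level found well above background or at the probe's level if that was larger. The number of arrays limits the precision. Promoter windows were aligned with Biopython 1.88. The procedure was tested on simulated data.

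The genes, the lists and the alternatives were chosen with earlier results of these data known. The genes named are the 10 above, Cd109, the tested genes of the Cyp2 block, the 3 further Cyp genes with the largest moderated t each way, the 2 genes of each list with the largest absolute moderated t and the 5 nearest in pattern to Cyp2b10. Ahr, Nr1i2, Por, Gstm1, Abcc3, Sftpa1, Sftpb, Sftpc, Sftpd, Cd79a, Cd79b, Ms4a1 and Cyp2b23 were named in addition, after their values were seen. So were Bpifa1, Bpifb1, Scgb3a1, Ager, Akap5, Hopx, Aqp5 and Pdpn. Alternatives were normexp background correction (offset 50) on the median signals, quantile normalization, median scaling, the authors' deposited values, no filter or a stricter one on dim probes, eBayes with a trend, a replicate block, a sex term, averaging the probes of each gene, and leaving out each array. All arrays lay on 1 slide.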

Additional observations from a re-analysis of the deposited data

How the results depend on the processing

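No gene passed the adjusted threshold under any alternative run, and without CD109-/- replicate 2 limma called 2 probes, so that leaving out each array gave 0 to 2 probes. The count of genes at an unadjusted p under 0.05 was 1219 with all arrays and ran from 553 (without CD109+/+ replicate 1) to 1929 (without CD109-/- replicate 2). With the replicate number as a block it was 1898, although the labels do not say that the numbers pair samples. Deviations of same-numbered samples from their genotype means correlated at r = 0.36 across genes, and the block changed no other call. Non-overlapping genes among those described numbered 5 under each scaling and filter and 5 to 7 when an array was left out. Cyp2b9, Cyp2b10, Cyp4b1 and Cyp2f2 stayed positive and Nr1i3 negative under normexp, quantile normalization, median scaling and leaving out each array, while Cyp2s1 and Cyp1b1 each turned positive in 1 of these. The authors' values, the filters, the trend and the block cannot move a difference. Sex as a covariate is the same fit as leaving out the only male. The array left alone in its genotype is then assumed to vary like the other pair. Signal near background limits Cyp2b13, Cyp2b19 and Cyp1a1.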

Other observations

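The widest spread among the P450 genes lay in the Cyp2c subfamily, which was singled out after its values were seen and is given without a test. Of 15 Cyp2c genes with a named probe 10 were tested, 8 lower and 2 higher in CD109-/- tumours. Cyp2c40 read -6.70 and -1.54 in CD109-/- tumours, against -0.92 and -0.47 in CD109+/+ tumours, and the -6.70 was not well above background. Cyp2c29 read -4.67 and -0.60 in CD109-/- tumours, against 0.16 and 0.46 in CD109+/+ tumours. Cyp2c67, Cyp2c68 and Cyp2c69 had the same order of arrays, with CD109-/- replicate 1, the only male, at -4.49, -4.66 and -5.22. In the female CD109-/- tumour the same 3 genes stood at 0.22, 0.22 and -0.05. Without the male array the differences of Cyp2c29, Cyp2c40, Cyp2c67, Cyp2c68 and Cyp2c69 were -0.91, -0.85, -0.37, -0.50 and -0.51. Several of these paralogs are close in sequence, so their probes may share signal, and sex and individual tumour cannot be told apart with 1 male. The hepatocyte marker Alb had the same order of arrays, with -3.19 and 1.17 in CD109-/- tumours, against 2.49 and 5.25 in CD109+/+ tumours, and its part in the Cyp2c values was not tested.

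Cyp2c65 and Cyp2c66, known from mouse intestine, went the opposite way on that array. Cyp2c65 read -0.27 and -4.33 in CD109-/- tumours, against -2.61 and -3.60 in CD109+/+ tumours, and Cyp2c66 read -1.28 and -4.67 in CD109-/- tumours, against -3.48 and -4.53 in CD109+/+ tumours. Both were highest in CD109-/- replicate 1, and without it they differed by -1.23 and -0.66.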
